A study of Mus musculus with 6 samples.

Results

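The genes described here encode the subunits of the mitochondrial respiratory chain and of the ATP synthase. They were taken by name, as every probe set whose single gene symbol in the array annotation began with Nduf followed by a letter a, b, c, s or v and a digit, with Uqcr, with Cox and a digit from 4 to 8 or with Atp5, or was Sdha, Sdhb, Sdhc, Sdhd or Cyc1. This gave 165 of 45101 probe sets and 82 of 18194 named genes, with 35 genes in complex I, 4 in complex II, 9 in complex III, 17 in complex IV and 17 in complex V. Each gene was read from its probe set with the highest mean. The study measured 6 one-colour arrays of mouse T cell leukemias, 3 with wild-type Sh2b3 (WT) and 3 from Sh2b3-/- marrow (KO). Sh2b3 encodes LNK, an adaptor that restrains signalling by cytokine receptors. In both groups, marrow progenitors of 8-week-old donors, C57BL6 for WT, were depleted of lineage-positive cells and infected with a MigR1 retrovirus carrying ΔE-Notch1, an activated NOTCH1 without its extracellular part, and 50000 Lin-Sca1+ infected cells were given to each irradiated C57BL6 recipient. All 6 leukemias therefore carry the same activated NOTCH1, the virus entered mixed progenitors, and host cells within a tumour have wild-type Sh2b3. The labels give the strain C57BL6 for the WT samples and no strain for the KO samples. Arrays of a group are labelled biological replicates, but their RNA is also described as a triplicate isolation and no array is linked to an animal. The p-values here therefore cover only array-to-array spread, and some of that may be technical.

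The respiratory chain passes electrons from NADH, at complex I, and from succinate, at complex II, through ubiquinone, complex III and cytochrome c to oxygen at complex IV. Complexes I, III and IV pump protons across the inner mitochondrial membrane, and complex V, the ATP synthase, lets them return while it makes ATP. Subunits come from nuclear genes, measured here, and from a small set of genes on mitochondrial DNA that were not analysed here. Dividing T cells and leukemia cells are known to use both glycolysis and respiration.

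Values are log2 signals, GCRMA-normalized by the authors, on which readings near 2 are the bottom of the scale and carry little information. A log2 fold change is KO minus WT. Sh2b3 itself read 4.25, 4.83 and 4.08 on the WT arrays and 2.29, 2.24 and 2.29 on the KO arrays, on its brighter probe set, with no overlap (two-sided exact permutation p = 0.1, the smallest that 3 against 3 allows). Its log2 fold change was -2.11 (standard error 0.247, limma adjusted p = 0.157), and its other probe set read 1.75 to 1.97 over the 6 arrays, too low to inform. WT arrays 1 and 2 lay closer together than any other pair. Over the 71 subunit genes whose mean exceeded 8, the SD of the difference between these 2 arrays was 0.119, against 0.183 to 0.272 for the other 14 pairs. Over the 3207 genes of the array whose mean exceeded 8, this SD was 0.166, against 0.370 to 0.499. The T cell identity given by the labels was seen in the signals of Cd3d, at 12.13 to 12.63, and Cd3g, at 11.82 to 12.35, over the 6 arrays, whereas Cd4 lay at 2.23 to 4.63. The mean over 12 T cell markers, 3 higher and 9 lower in KO, was 9.65 to 10.26 on WT arrays and 9.43 to 10.12 on KO arrays. Markers of other cells were read too. The mean over 4 plasma cell markers was 6.20 to 7.23 on WT arrays and 7.44 to 8.31 on KO arrays, higher in 4 of 4. One of these, Derl3, was dim, at 2.21 to 3.56. The mean over 6 B cell markers, higher in 5 of 6, was 3.71 to 3.98 on WT and 3.58 to 4.79 on KO arrays. Of these, Pax5 and Cd79a lay near the bottom of the scale. The mean over 9 monocyte, macrophage and granulocyte markers, higher in 7 of 9, was 5.92 to 6.66 on WT and 6.42 to 6.75 on KO arrays. Itgam and Cd14 lay near the bottom of the scale. The mean over 2 natural killer markers, higher in 2 of 2, was 7.11 to 7.22 and 7.60 to 8.29, with Ncr1 at the bottom of the scale. These 2 were Gzma, at 11.30 to 12.96 over the 6 arrays, and Nkg7, at 1.75 to 3.62. That mean therefore rests mainly on Gzma and does not show that natural killer cells were present. The mean over 4 erythroid markers was 6.32 to 6.50 and 5.94 to 7.02, with Hba-a1 at the bottom of the scale, and the mean over 9 proliferation markers was 10.76 to 10.94 and 10.34 to 11.03. The part of these in the results below was not tested, and in bulk samples fewer cells of a type and less RNA per cell cannot be told apart.

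For most of the nuclear subunit genes, group means differed little between leukemias with and without Sh2b3, but equality was not tested. Sh2b3 itself was not called either, so an absent call does not show equal levels. No subunit gene passed the threshold. Of 79 tested, 0 were higher and 0 lower in KO with limma at an adjusted p under 0.05, where over all 12563 genes tested 0 were called higher and 0 lower (0.0%). By sign, 41 were higher (beside 48.1% of all genes), 37 lower (beside 51.4%) and 1 equal, with a median log2 fold change of 0.01, beside -0.01 over all genes tested. Of the 6725 genes with a mean above 5, 2637 were higher and 4050 lower, with a median of -0.07. Centring each array on its median over genes above 5 moved all genes together. With it, 52 members were higher and 27 lower, their median was 0.07, and the median over all genes was 0.05. At an unadjusted p under 0.05 there were 5, all of them lower in KO, 6.33% of the 79, beside 7.82% of all genes (3.31% higher and 4.51% lower). This count was 0 without WT replicate 1, 2 without WT replicate 3 and 3 without KO replicate 2, and it was 2 with WT replicates 1 and 2 averaged. Over all 12563 genes the count was 983, and 430, 1230, 1178 and 502 in these settings, in the same order. The count over all genes thus fell without WT replicate 1 and with WT replicates 1 and 2 averaged. It rose without WT replicate 3 and without KO replicate 2, where the members' count fell. Groups without overlap were found for 10 members, 4 with KO above and 6 with KO below, or 12.7%, beside 13.8% of all genes (5.49% above and 8.29% below). Both shares lie near the background. The lowest adjusted p of any member was 0.634.

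The 82 genes fell into bright and dim ones. Of these, 71 had a mean above 8, a level set after the values were seen; just above it was Sdhc, with a mean of 8.15, and just below it Cox7c, with 6.62. The bright genes had group means that differed by at most 1.28-fold in either direction, and 59 of the 71 had a log2 fold change between -0.20 and 0.20. Their median absolute log2 fold change was 0.09, beside 0.15 over all 3207 genes with a mean above 8. These 2 sets are not matched for brightness. The mean level on WT arrays was 11.20 for the subunit genes and 9.56 for the 3207. The median standard errors were 0.118 and 0.164, and the part of brightness in the smaller median was not tested. Their replicates were close, with a median SD of 0.110 in WT and 0.110 in KO and a highest SD of 0.359. Another 8 tested genes were at or below 8, and the 3 genes Ndufa4l2, Ndufb4 and Cox7b2 lay under the low value limit of 2.04 and were not tested. Counts of fold changes and tests are therefore over 79 genes. Ndufb4 was read from 1 probe set, so that its low reading rests on that probe set alone. Ndufb1, also with 1 probe set, had a mean of 3.84. Another 9 probe sets that carried a symbol of the rule among several symbols were left out.

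**Figure D1:**
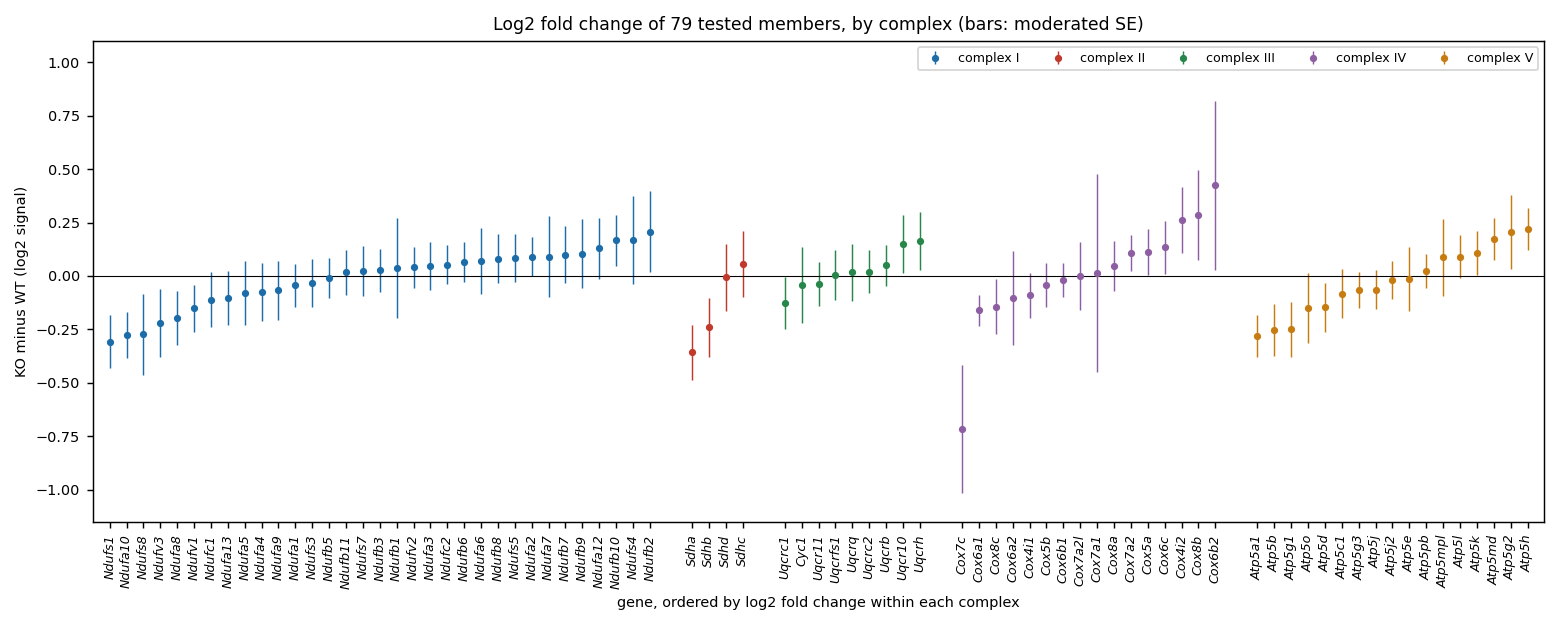
Log2 fold change (KO minus WT, log2 signal) of each of the 79 tested genes, ordered within complexes I to V, with moderated standard errors from limma as bars. Most points lie within 0.20 of 0; Cox7c, at -0.72, and Cox6b2, at 0.42, are the lowest and the highest.

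The mean over the bright genes of a complex differed little between groups. For complex I, over 32 genes, it was 10.96, 10.85 and 10.86 on the WT arrays and 10.92, 10.84 and 10.88 on the KO arrays. For complex III, over 9 genes, it was 11.24, 11.06 and 11.18 in WT and 11.25, 11.10 and 11.21 in KO. The groups overlapped in both. For complex IV, over 9 genes, it was 12.16, 12.06 and 12.15 in WT and 12.13, 12.12 and 12.15 in KO. For complex V, over 17 genes, it was 11.73, 11.62 and 11.70 in WT and 11.73, 11.58 and 11.67 in KO. These overlapped as well. Complex II, over 4 genes, read 9.64, 9.54 and 9.84 in WT and 9.53, 9.51 and 9.57 in KO, with KO array 3 above WT array 2. The median log2 fold changes over tested genes were 0.03 for complex I, -0.12 for complex II, 0.02 for complex III, 0.01 for complex IV and -0.02 for complex V, the last of which was 0.0433 with the arrays centred, and none of them is a test. The median log2 fold change of complex II subunits was -0.0417 without WT replicate 3 and -0.22 without WT replicate 2. The medians of the other complexes turned sign when single arrays were left out.

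**Figure D2:**
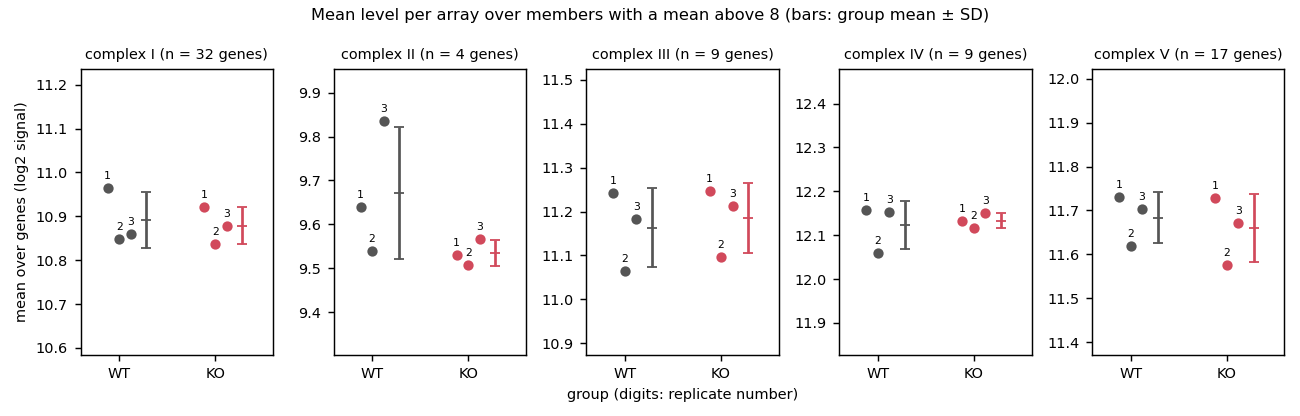
Mean log2 signal per array over the bright genes (mean above 8) of each complex, with digits for the replicate number and bars for the group mean ± SD over 3 arrays. WT and KO arrays overlap in every panel; the 3 KO arrays of complex II lie between 9.51 and 9.57, and WT array 3 lies at 9.84.

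Complex I is the largest of the complexes. Its core subunits carry the flavin and the iron-sulfur clusters that bring electrons from NADH to ubiquinone, and supernumerary subunits surround them. Ndufs1, the largest core subunit, read 9.50, 9.36 and 9.48 in WT and 9.07, 9.13 and 9.22 in KO. The KO values were below all WT values, with a log2 fold change of -0.31 (standard error 0.124, limma adjusted p = 0.634). Ndufs8, a core subunit with iron-sulfur clusters, read 11.39, 11.27 and 10.88 in WT and 11.26, 10.72 and 10.74 in KO, a log2 fold change of -0.27 with overlap between groups. Its 5 bright probe sets gave -0.27 to -0.17. Ndufv1, which binds NADH and the flavin, had -0.15, from 10.37, 10.26 and 10.39 in WT to 10.12, 10.17 and 10.28 in KO, where KO array 3 lay above WT array 2. Of 6 core subunits measured, 4 were lower and 2 higher, with a median of -0.09. Of the 27 other tested complex I genes, 10 were lower and 17 higher, with a median of 0.05. The difference between core and other subunits was not tested.

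Among the supernumerary subunits, Ndufa10 read 10.87, 10.78 and 10.85 in WT and 10.62, 10.42 and 10.63 in KO. The groups did not overlap and the log2 fold change was -0.28 (standard error 0.108, adjusted p = 0.634 by limma). Ndufa10 and Ndufs1 were the 2 complex I genes whose groups did not overlap, 6.06% of the 33 tested, beside 13.8% of all genes. Ndufa8, a subunit of the intermembrane side, had a log2 fold change of -0.20 and Ndufv3 -0.22, while Ndufb2 had 0.21, Ndufb10 0.17 and Ndufs4, which is needed for assembly of the NADH-oxidising part, 0.17. These 5 overlapped between groups. Ndufs4 read 9.68, 9.41 and 10.05 in WT and 10.14, 9.93 and 9.57 in KO, so that arrays of a group differed by more than the group means. Ndufb9, at 0.10, turned to -0.055 without KO replicate 3, whose value of 11.50 was the highest of the 6. Ndufa12 had 0.13, Ndufa13, which was first described as a cell death regulator, -0.10, Ndufc1 -0.11 and Ndufb7 0.10. The remaining tested complex I genes had log2 fold changes between -0.08 and 0.09. Ndufa4, grouped here by its name, is known as a subunit of complex IV; it read 11.14, 10.99 and 11.45 in WT and 11.15, 11.02 and 11.19 in KO.

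Complex II is succinate dehydrogenase, the enzyme shared by the respiratory chain and the TCA cycle. Sdha, its flavoprotein, had the log2 fold change farthest from 0 among the bright members. It read 9.65, 9.60 and 9.84 in WT and 9.24, 9.39 and 9.39 in KO, with no overlap and a log2 fold change of -0.36 (standard error 0.129, limma adjusted p = 0.634). A second bright probe set of Sdha read 9.40, 9.32 and 9.44 in WT and 8.80, 8.92 and 8.93 in KO, a difference of -0.50 in the same direction and again without overlap. The other 2 probe sets of Sdha lay near the bottom of the scale. Sdha was the 1 gene of 4 in complex II without overlap, or 25.0%, beside 13.8% of all genes. Sdhb, the iron-sulfur subunit, read 11, 10.82 and 11.20 in WT and 10.95, 10.64 and 10.71 in KO, a log2 fold change of -0.24 with overlap, and of -0.1433 without WT replicate 3. The membrane anchors Sdhc and Sdhd stood at 0.06 and -0.01, with 8.16, 8.08 and 8.13 against 8.00, 8.25 and 8.29 for Sdhc. Sdhd read 9.75, 9.66 and 10.17 in WT and 9.93, 9.75 and 9.88 in KO. Its second bright probe set read 8.76, 9.34 and 9.48 in WT and 9.35, 9.33 and 9.52 in KO, a difference of 0.21 with overlap, where WT array 1 alone stood lower. The catalytic pair thus had lower KO means than WT means, and the probe sets of the anchor Sdhd differed in sign.

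Complex III passes electrons from ubiquinol to cytochrome c. Its electron carriers encoded in the nucleus are Cyc1, the cytochrome with a bound heme, and Uqcrfs1, the Rieske iron-sulfur protein. Cyc1 read 10.62, 10.45 and 10.79 in WT and 10.48, 10.31 and 10.94 in KO, with a log2 fold change of -0.04, and turned positive when the array of WT replicate 3, KO replicate 1 or KO replicate 2 was left out. Uqcrfs1 read 10.49, 10.33 and 10.63 in WT and 10.51, 10.48 and 10.47 in KO, with 0.00. Uqcrc1, a core protein of the matrix side, had -0.13, while the small subunits Uqcrh, the acidic hinge protein, and Uqcr10 had 0.16 and 0.15. Uqcrh read 12.40, 12.17 and 12.52 in WT and 12.73, 12.53 and 12.32 in KO. The groups overlapped for all 9 genes of complex III, and the 4 not yet named here, Uqcr11, Uqcrb, Uqcrc2 and Uqcrq, lay between -0.04 and 0.05.

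Complex IV is cytochrome c oxidase, whose catalytic core is encoded by mitochondrial DNA. Over complex IV, groups did not overlap for 4 of 16 tested genes, 2 with KO above and 2 with KO below, or 25.0%. Among all genes this share was 13.8% (5.49% above and 8.29% below). Cox4i2 and Cox8c, near the bottom of the scale, are among these 4. The nuclear subunits Cox6a1 and Cox7a2, which have muscle forms of the same subunit in Cox6a2 and Cox7a1, both had groups that did not overlap, in opposite directions. Cox6a1 read 13.54, 13.48 and 13.52 in WT and 13.30, 13.37 and 13.39 in KO, a log2 fold change of -0.16 (standard error 0.0717, limma adjusted p = 0.646). Its other probe set read 11.69, 11.63 and 11.81 in WT and 11.56, 11.27 and 11.22 in KO, a difference of -0.36. Cox7a2 read 12.37, 12.30 and 12.36 in WT and 12.39, 12.42 and 12.54 in KO, a log2 fold change of 0.11 (standard error 0.0847, limma adjusted p = 0.756). The KO values exceeded the highest WT value by as little as 0.02, and the other probe set of Cox7a2 gave 0.01 with overlap. Cox6c had 0.13 and Cox5a, a matrix subunit, 0.11, both with overlap; for Cox5a the 3 bright probe sets gave 0.09 to 0.13. Cox4i1, Cox5b, Cox6b1, Cox7a2l and Cox8a lay between -0.09 and 0.05.

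Cox7c had the lowest log2 fold change of all members, -0.72 (standard error 0.299, limma adjusted p = 0.638). Its main probe set had a moderate signal and is of a type (_s_at) that can bind related sequences. Cox7c read 6.83, 6.72 and 7.37 in WT and 5.98, 6.79 and 6.0 in KO, so that KO array 2 lay within the WT range. The dimmer probe set of Cox7c read 3.50, 3.78 and 4.27 in WT and 3.35, 2.92 and 1.58 in KO, lower in each KO array, but reaching the bottom of the scale. Both probe sets thus gave a lower KO mean, and the size of the difference on the dimmer set is uncertain.

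Isoforms known from muscle, lung or testis were dim on every array. Cox4i2, the lung form of subunit 4, read 2.26, 2.47 and 2.07 in WT and 2.48, 2.53 and 2.57 in KO. KO lay above WT, by 0.01 at the nearest values, near the bottom of the scale. The muscle forms Cox6a2 and Cox8b read 2.01 to 2.85 and 2.01 to 2.87 over the 6 arrays. The testis form Cox8c, at 2.05 to 2.34, had KO below WT, also near the bottom of the scale. Cox7b2, another testis form, and Ndufa4l2, a paralogue of Ndufa4 known to respond to low oxygen, read 1.18 to 1.58 and 1.58 to 1.88. Cox6b2, the testis form of subunit 6b, read 4.95, 5.01 and 3.62 in WT and 4.98, 4.89 and 4.98 in KO, where WT array 3 alone stood lower. Its log2 fold change of 0.42 became -0.03 without WT replicate 3. Cox7a1, the muscle form of subunit 7a, read 4.65, 4.64 and 3.84 in WT and 5.33, 3.58 and 4.26 in KO, a log2 fold change of 0.01 with an SD of 0.882 within KO; it became -0.255 without WT replicate 3 and -0.46 without KO replicate 1.

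Complex V has a head that makes ATP, a ring of c subunits that turns as protons pass, a peripheral stalk that holds the head still, and small membrane subunits. Atp5a1, the alpha subunit of the head, had the smallest p of all members. It read 11.69, 11.64 and 11.48 in WT and 11.30, 11.34 and 11.33 in KO, with no overlap and a log2 fold change of -0.28 (standard error 0.0973, limma adjusted p = 0.634). Its second bright probe set gave -0.21 with overlap. Atp5b, the catalytic beta subunit, read 12.20, 12.10 and 12.49 in WT and 12.13, 11.90 and 12 in KO, a log2 fold change of -0.25, where KO array 1 lay above WT array 2, and of -0.14 without WT replicate 3. Atp5d had -0.15, Atp5c1, the rotating shaft, -0.08 and Atp5e -0.01. By sign, the 5 head subunits were all lower in KO, with a median of -0.15, a set put together after the values were seen. Among the 3207 genes with a mean above 8, 1753 were lower. Groups did not overlap for 1 of the 5, Atp5a1, or 20.0%, beside 13.8% of all genes. The mean per array over the 5 was 11.91, 11.76 and 11.83 in WT and 11.82, 11.60 and 11.62 in KO, so that KO array 1 overlapped. The sign of Atp5e was not stable: with each array centred on the median of genes above 5 its log2 fold change was 0.05.

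The 3 genes for the c subunit went different ways. Atp5g1 read 10.34, 10.30 and 10.45 in WT and 10.10, 9.94 and 10.30 in KO, a log2 fold change of -0.25, where KO array 3 equalled WT array 2. Atp5g2 had 0.21, with 11.40 on KO array 3 and 10.72 to 11.08 on WT arrays. Without KO replicate 3 it was 0.035, and with the mean over its probe sets, of which 2 are near the bottom of the scale, it was -0.07. Atp5g3 read 12.75, 12.60 and 12.76 in WT and 12.62, 12.61 and 12.68 in KO. These genes encode the same mature protein from different precursors.

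In the peripheral stalk, 1 of 4 genes had groups without overlap, and among the small membrane subunits 1 of 5, each with KO above. These sets were put together after the values were seen. Over complex V there were 3 of 17, 2 with KO above and 1 with KO below, or 17.6%. The share over all genes was 13.8% (5.49% above and 8.29% below). Atp5h, subunit d of the stalk, read 13.40, 13.45 and 13.13 in WT and 13.51, 13.57 and 13.56 in KO, a log2 fold change of 0.22 (standard error 0.0984, limma adjusted p = 0.646) that was 0.1217 without WT replicate 3. Its second probe set read 12.26, 12.08 and 12.03 in WT and 12.41, 12.31 and 12.31 in KO, the same difference of 0.22 without overlap. Atp5md, a small membrane subunit linked to dimers of the synthase, read 11.39, 11.21 and 11.31 in WT and 11.54, 11.42 and 11.47 in KO, a log2 fold change of 0.17 (standard error 0.0974, limma adjusted p = 0.685). Atp5k, a membrane subunit of the same region, had 0.11, with 11.23, 11.18 and 11.21 in WT and 11.21, 11.27 and 11.46 in KO. Atp5o, which joins the stalk to the head, had -0.15, from an SD of 0.322 within KO. Atp5j, Atp5j2, Atp5l, Atp5mpl and Atp5pb lay between -0.06 and 0.09.

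**Figure D3:**
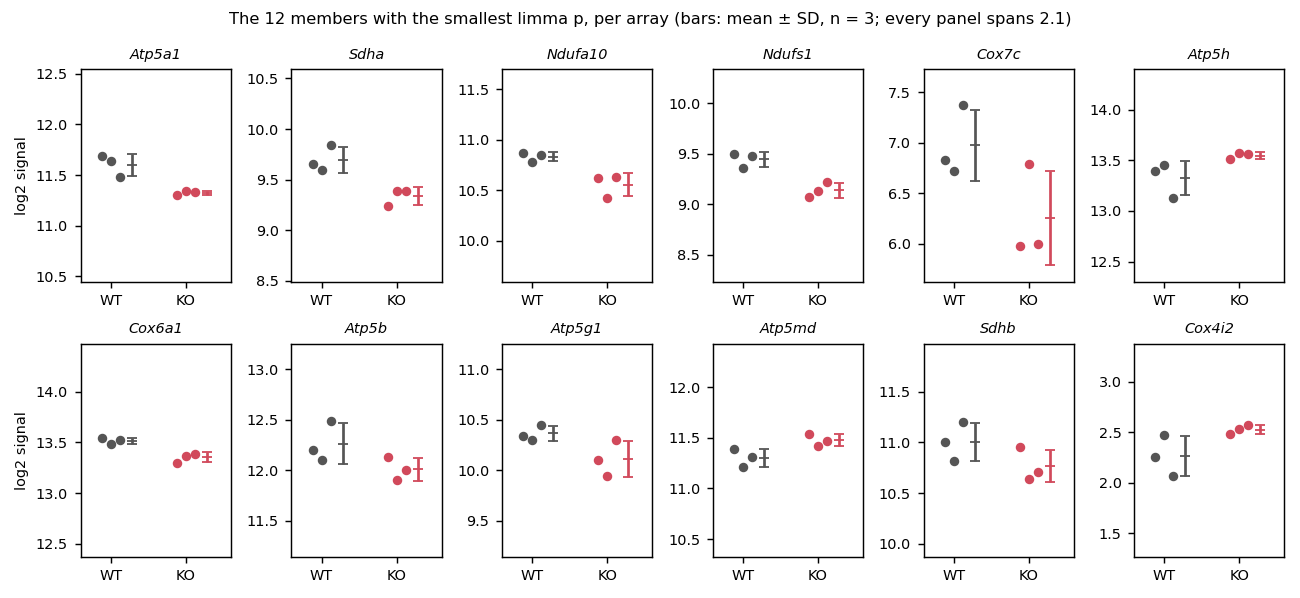
Log2 signal on each array for the 12 members with the smallest limma p, WT in grey and KO in red, with bars for the mean ± SD of 3 arrays and the same span of 2.1 in every panel. Atp5a1, Sdha, Ndufa10, Ndufs1 and Cox6a1 show all KO points below all WT points, and Atp5h, Atp5md and Cox4i2 show all KO points above; the others overlap.

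Where a gene had several bright probe sets, they mostly gave the same sign. This held for 24 of 36 genes with 2 or more probe sets above a mean of 8, and the signs differed for 12. The probe sets that stood for 17 of the 82 genes have names ending in _x_at or _s_at, which mark probes that can bind related sequences, and respiratory chain genes have many processed pseudogenes. Readings on these probe sets, such as the main ones of Atp5a1 and Cox7c, may include other transcripts.

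Promoters are shown for the 2 genes with the smallest p in each direction among bright members without overlap that have an entry in the RefSeq table (GRCm38.p6), in which 66 of the 82 matched. Each runs from 250 bases before to 50 bases after the annotated start, 5′ to 3′ on the gene's strand. Capitals mark 3 motifs, searched on both strands: the NRF1 palindrome with any base allowed at either of its middle positions, the ETS motif CCGGAAGT, which GABP binds, and the YY1 motif AAGATGGC. These factors are known regulators of respiratory chain genes. Sdha (chr13:74350191-74350490, minus strand) and Ndufa10 (chr1:92473709-92474008, minus strand) had lower KO values, and Atp5h (chr11:115419870-115420169, minus strand) and Atp5md (chr19:47090598-47090897, minus strand) had higher KO values.
Sdha: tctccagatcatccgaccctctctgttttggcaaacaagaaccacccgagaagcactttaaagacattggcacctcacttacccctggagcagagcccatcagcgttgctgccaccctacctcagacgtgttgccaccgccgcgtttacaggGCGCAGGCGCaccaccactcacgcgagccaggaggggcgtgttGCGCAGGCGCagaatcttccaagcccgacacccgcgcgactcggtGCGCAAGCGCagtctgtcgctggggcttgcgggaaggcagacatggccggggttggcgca
Ndufa10: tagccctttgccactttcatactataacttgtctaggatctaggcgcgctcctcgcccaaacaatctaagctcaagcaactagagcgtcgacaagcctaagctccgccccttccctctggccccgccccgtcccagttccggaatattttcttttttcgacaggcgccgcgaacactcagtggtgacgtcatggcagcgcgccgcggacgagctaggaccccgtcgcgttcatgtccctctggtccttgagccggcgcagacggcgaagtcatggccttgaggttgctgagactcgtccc
Atp5h: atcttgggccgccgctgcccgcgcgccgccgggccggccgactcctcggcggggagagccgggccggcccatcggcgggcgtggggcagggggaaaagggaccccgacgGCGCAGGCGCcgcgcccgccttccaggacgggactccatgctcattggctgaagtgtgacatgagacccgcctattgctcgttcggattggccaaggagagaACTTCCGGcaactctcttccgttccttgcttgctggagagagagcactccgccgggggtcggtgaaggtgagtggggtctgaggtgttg
Atp5md: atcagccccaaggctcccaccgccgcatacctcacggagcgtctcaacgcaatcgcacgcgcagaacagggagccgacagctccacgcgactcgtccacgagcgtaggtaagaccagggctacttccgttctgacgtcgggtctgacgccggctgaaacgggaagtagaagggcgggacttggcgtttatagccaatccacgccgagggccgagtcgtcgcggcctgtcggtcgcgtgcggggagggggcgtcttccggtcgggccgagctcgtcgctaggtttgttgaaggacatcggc

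In these letters the Sdha promoter held 3 matches to the NRF1 motif, Atp5h held 1 to the NRF1 motif and 1 to the ETS motif, and none of the 3 motifs was found in the windows of Ndufa10 and Atp5md. Over the members in the table, 15 of 66 (22.7%) had the NRF1 motif, beside 11% of 10165 tested genes and 5.19% of all 27025 genes with a promoter. Its exact palindrome, included in that count, was found in 4 of 66 (6.06%), beside 2.27% of tested genes and 1.07% of all. The YY1 motif was in 9 of 66 (13.6%), beside 5.18% of tested genes and 3.19% of all. The ETS motif was in 5 of 66 (7.58%), below the 8.64% of tested genes and above the 4.31% of all. A match describes these letters and is not a binding site.

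Other mitochondrial genes were read beside the subunits, from lists that the members do not belong to. As background for their signs, 48.1% of all genes tested were higher and 51.4% lower. Among the 6725 genes with a mean above 5, 2637 were higher and 4050 lower, with a median of -0.07. Of the TCA cycle genes, which feed electrons to complexes I and II, 11 of 13 tested were lower and 2 higher, with a median of -0.19 and 0 past the threshold in either direction by limma (4 at an unadjusted p under 0.05, all lower, or 30.8%, beside 7.82% of all genes). The mean over the 13 genes was 9.75, 9.71 and 9.71 on WT arrays and 9.45, 9.45 and 9.58 on KO arrays, with no overlap. The groups of 6 of them did not overlap, all with KO below, or 46.2%, beside 13.8% of all genes (8.29% with KO below). Mdh2, mitochondrial malate dehydrogenase, read 12.44, 12.45 and 12.49 in WT and 12.15, 12.17 and 12.23 in KO, a log2 fold change of -0.28 (standard error 0.0800, limma adjusted p = 0.629). Idh2, which makes NADPH in mitochondria, had -0.83, Ogdh, of the oxoglutarate dehydrogenase complex, -0.55, and Idh3a, of the NADH-linked isocitrate dehydrogenase, -0.29. For each of these 4 the KO arrays were below the WT arrays. With the mean over its probe sets Idh3a was 0.07.

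Of the genes for electron carriers and ATP exchange, 8 of 12 were lower and 4 higher, with a median of -0.13, 0 past the threshold and 3 at an unadjusted p under 0.05, or 25.0%, beside 7.82% of all genes. Gpd2, which passes electrons from glycerol phosphate to ubiquinone, read 7.56, 7.20 and 7.79 in WT and 7.11, 7.05 and 6.55 in KO, a log2 fold change of -0.61. The phosphate carrier Slc25a3, at -0.22, and the ADP/ATP carrier Slc25a4, at -0.16, also had KO below WT. With Gpd2 these were the 3 of 12 without overlap, or 25.0%, beside 13.8% of all genes (8.29% with KO below). Slc25a5, another ADP/ATP carrier, read 12.76, 12.76 and 12.74 in WT and 12.76, 12.21 and 12.24 in KO, where KO array 1 stood with the WT arrays.

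The assembly factors of the complexes had 18 of 44 higher and 26 lower, with a median of -0.12, 0 past the threshold and 3 at an unadjusted p under 0.05, all lower, or 6.82%, beside 7.82% of all genes. This split by sign was near that of the 6725 genes with a mean above 5 (2637 higher and 4050 lower). Ttc19, needed for complex III, had -0.83, and Ecsit and Foxred1, both needed for complex I, had -0.59 and -0.59, each with KO below WT, as had Coa7, for complex IV, at -0.52. Ttc19 reached 2.35 on KO array 3, near the bottom of the scale. Groups of 7 of the 44 did not overlap, 1 with KO above and 6 with KO below, or 15.9%. The share over all genes was 13.8% (5.49% above and 8.29% below). The mitochondrial ribosomal proteins, which translate the subunits encoded by mitochondrial DNA, had 51 of 76 higher (beside 48.1% of all genes) and 24 lower (beside 51.4%). Their median was 0.09, with 0 past the threshold. At an unadjusted p under 0.05 by limma were 2 of them, both higher, or 2.63%, below the 7.82% of all genes (3.31% higher). Mrpl1 and Mrpl13 had 0.41 and 0.41, Mrpl33 0.23 and Mrps14 0.23, and for these 4 the KO arrays were above the WT arrays. No overlap between groups was seen for 13 of these 76, 10 with KO above and 3 with KO below, or 17.1%, beside 13.8% of all genes (5.49% above and 8.29% below).

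Genes of protein import and chaperones had 9 of 16 higher and 7 lower, with a median of 0.01, and regulators of mitochondrial gene expression had 6 of 17 higher and 11 lower, with a median of -0.04. In both lists 0 passed the threshold by limma and 0 had an unadjusted p under 0.05, beside 7.82% of all genes. In the first, Timm10 had 0.36, Hspa9 -0.32, Timm13 0.21 and Tomm20 0.11. In the second, Ssbp1, which binds mitochondrial DNA as a single strand, had 0.19, Ppargc1b, a coactivator of respiratory genes, -0.77, Tfb1m 0.45 and Esrra -0.41. Ppargc1b had an SD of 0.881 within KO. With the mean over probe sets, Ssbp1 was -0.02 and Tomm20 -0.04. These lists share the arrays of the subunits, and no difference between lists was tested.

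**Figure D4:**
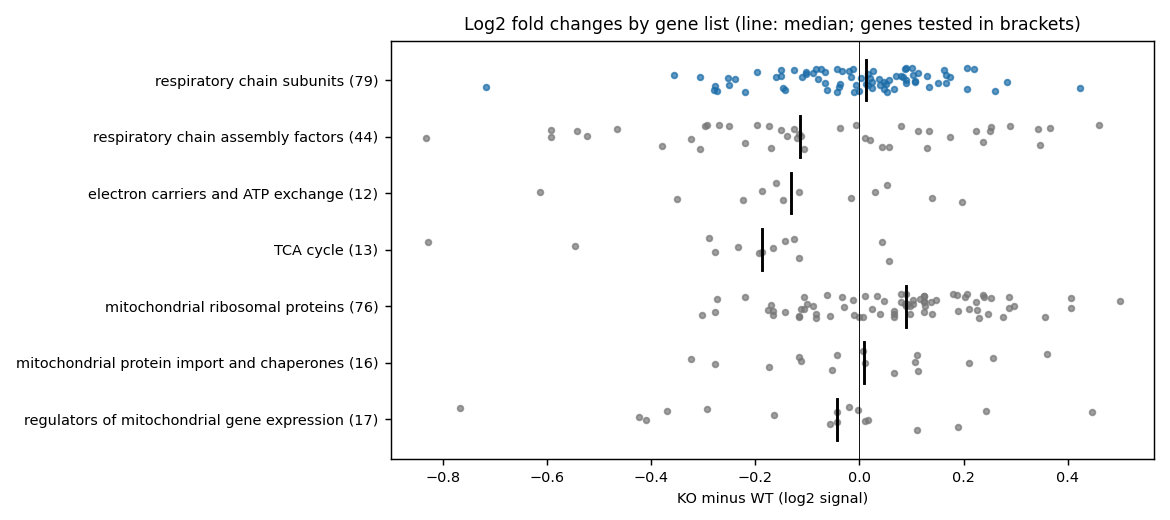
Log2 fold change (KO minus WT, log2 signal) of every tested gene in 7 lists, with a black line at the median of each. The respiratory chain subunits centre at 0.01, the TCA cycle genes at -0.19 and the mitochondrial ribosomal proteins at 0.09; vertical scatter within a list has no meaning.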

How the data were processed

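The authors deposited log2 values of 6 arrays, 45101 probe sets each; GCRMA is the tool named per the submitters' processing notes, with version and settings not given in the sources used here. The log base was taken from the range, 0.31 to 14.76. Per the labels' protocols, 10 ng of RNA per sample was amplified with a whole-transcriptome kit, which can compress differences. Array medians lay between 2.26 and 2.36, and the values were used as deposited. The number of arrays limits the precision.

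Probe sets with 1 symbol (34958; 932 had several, 9211 none) were named from the platform annotation, updated by gene identifier to RefSeq (GRCm38.p6). Testing was restricted to genes whose mean exceeded 2.04 (40th percentile of probe set means), with limma 3.58.1 (R 4.3.3), lmFit and eBayes with trend, two-sided, Benjamini-Hochberg over 12563 genes, threshold 0.05. The script was tested on simulated data. The labels give no link between same-numbered WT and KO arrays. Members, lists and alternatives were chosen with earlier results of these data known. Named are up to 3 core subunits per complex, the 12 members with the smallest p, the 8 with the largest fold change, tissue-limited forms, and up to 4 genes with the smallest p per other list; other members named, and the groups within complex V, were chosen after their values were seen.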

Additional observations from a re-analysis of the deposited data

How the results depend on the processing

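Alternatives were another low value filter (none, 60th percentile), a constant prior variance, quantile normalization, centring on genes above 5, weights per array, a replicate block, the mean over probe sets, WT replicates 1 and 2 averaged, and each array left out. No member passed the threshold in any of these 15, and the lowest adjusted p of a named member was 0.263. Genes called over all genes were 0, but 1 with array weights and 0 to 51 with arrays left out (51 without WT replicate 3). Members at an unadjusted p under 0.05, a count chosen after the data were seen, were 5, but 2 with a constant prior variance, 3 with centring, 3 with the replicate block, 2 with WT replicates 1 and 2 averaged, and 0 to 6 with arrays left out. Over all 12563 genes this count was 983, and 990, 970, 901 and 502 in these settings, in the same order. With arrays left out it ran from 430 to 1230. Same-numbered arrays deviated from their group means with correlations of -0.04, -0.05 and -0.05. Over all pairs of a WT and a KO array these ran from -0.05 to 0.09. This gave no sign of pairing by number, but with 3 arrays per group it cannot show that the arrays are unpaired. The block called 0 genes. With centring the median of members was 0.0733, that of complex I 0.0867 and that of all genes 0.05, and 52 members were higher and 27 lower. With arrays left out the median log2 fold change of complex IV subunits ran from -0.0342 to 0.0875 (without KO replicate 2) and the Sh2b3 check from -2.27 to -1.89 (past the threshold without WT replicate 3). Signs turned for differences of several sizes, up to 0.42 for Cox6b2: with centring Atp5e 0.0467, Cyc1 0.0167 and Sdhd 0.0533; with quantile normalization Sdhd 0.0008; with array weights Cox7a1 -0.25 and Sdhd 0.0724; with the mean over probe sets Atp5g2 -0.0733, Ndufa12 -0.0117, Sdhd 0.10, Ssbp1 -0.0187, Idh3a 0.0708 and Tomm20 -0.0372; with WT replicates 1 and 2 averaged Uqcrfs1 -0.0333. With arrays left out the ranges were -0.18 to 0.075 for Atp5e, -0.30 to 0.12 for Cox6a2, -0.03 to 0.67 for Cox6b2, -0.46 to 0.42 for Cox7a1, -0.225 to 0.09 for Cyc1, -0.055 to 0.21 for Ndufb9, -0.11 to 0.15 for Sdhd and -0.0733 to 0.0767 for Uqcrfs1. The cause was not tested.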

Other observations

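Probe sets other than the brightest gave further values for some subunits. Of the 4 probe sets of Ndufs4, the dim pair went opposite ways without overlap between groups. One of them read 3.85, 4.03 and 4.29 in WT and 4.67, 5.22 and 4.53 in KO, and the other read 3.82, 3.76 and 3.80 in WT and 3.45, 3.74 and 3.34 in KO. The brightest probe set of this gene differed by 0.17 with overlap. The dimmest of 3 probe sets of Uqcr10 read 5.30, 4.59 and 5.45 in WT and 5.87, 5.04 and 6.40 in KO, a difference of 0.66, against 0.15 on the brightest.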
